A study of Mus musculus with 20 samples.

Results

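Knee articular cartilage of running mice that lack Dio2 was compared with that of running wild-type mice. The contrast took every sample labelled as run, 14 of the 20 in the series: 6 Dio2-/- pools (Dio2-/- Run) and 8 wild-type pools (wild-type Run). Each pool held cartilage of 2 male C57Bl/6 mice, so that 12 Dio2-/- mice and 16 wild-type mice entered. All were aged 4 to 6 months, and the knockout line was in generation 6 of its backcross to C57Bl/6. Both genotypes had been made to run on a treadmill with an incline of 5 degrees for 3 weeks, on 5 days a week, for 1 hour a day at 11 m per min. The knockout is carried in every tissue of the animal and not in cartilage alone. The methods both call all animals littermates and name a supplier for the wild-type mice, and which of these holds was not settled here.

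Dio2 encodes the type 2 deiodinase, which turns the prohormone thyroxine into active triiodothyronine inside the cell. In the growth plate triiodothyronine drives chondrocytes out of division and into hypertrophy and mineralization, and in articular cartilage too much of it is thought to push cells along the same path towards osteoarthritis. Running loads the joint mechanically, and chondrocytes answer load with changes in matrix synthesis and matrix breakdown.

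In Dio2-/- Run cartilage the values of the clock output genes Dbp and Nr1d1 were about 3-fold those of wild-type Run, most genes of skeletal muscle had higher values, and the calcium-binding chaperone Calr and single genes such as Pon1 and Syne1 had lower values. None of these differences passed correction. Among the alternative fits, the log2 difference of Nr1d1 fell as low as 0.65 and that of Dbp as low as 1.24. Of the 23148 probes tested, 0 had an adjusted P below 0.05 in limma, where the smallest adjusted P was 0.131. At an unadjusted P below 0.05 there were 1891 probes, 8.17% of those tested. Of these, 1003 probes (4.33%) had higher and 888 probes (3.84%) had lower values in Dio2-/- Run. Taken by the brightest probe of each of 12310 genes, 612 genes (4.97%) were higher and 383 genes (3.11%) lower at that threshold, with a median log2 fold change of 0.01 over all genes. In both directions together 8.08% of genes were at that threshold, and 51.9% of genes (48.7% of probes) had a fold change above 0. With a fold above 1.5 as well, 0.959% of probes (1.12% of genes) were higher and 0.583% of probes (0.487% of genes) lower. Values below are log2 normalized intensities, fold changes are differences of their means (Dio2-/- Run minus wild-type Run), and adjusted P-values are those of limma over all tested probes.

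The arrays of the 14 pools lay on 5 chips, and only chip 6 held both genotypes, with 2 Dio2-/- Run pools (replicates 24 and 25) and 1 wild-type Run pool (replicate 23). The other Dio2-/- Run pools were on chips 2 (3 pools) and 4 (1 pool), and the other wild-type Run pools on chips 1 (3 pools) and 3 (4 pools). Chip and genotype can therefore be told apart on those 3 arrays only. Within a genotype more probes passed between chips than passed between the genotypes. Chip 3 against chip 1 in wild-type Run gave 753 probes with an adjusted P below 0.05 (3.25%), and chip 2 against chip 6 in Dio2-/- Run gave 89 probes (0.384%). The first principal component of the 14 arrays held 28.96% of the variance, and chip accounted for 46.8% of it and genotype for 13.01%. The second component held 17.66%, and chip accounted for 88.5% of it and genotype for 9.99%. There are more chips than genotypes, so the shares of chip and genotype are not directly comparable. In the arrays used here each pool lay on a single chip, so differences between chips and between mice cannot be told apart. The paper reports that some samples were also measured on a second chip. Those replicates served its normalization, and 1 of each was then dropped. It also reports a check for large chip effects by principal components. Dio2-/- Run replicate 24 stood apart on the first component, with a score of 87.4 where the other 13 arrays lay between -27.7 and 12.6.

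Leaving out chip 6, an alternative chosen after seeing the data, gave more calls. Without its 3 arrays, where genotype and chip cannot be told apart, 179 probes had an adjusted P below 0.05, of which 171 were lower and 8 higher in Dio2-/- Run, with a median log2 fold change of -0.88. On the 3 arrays of chip 6, which those calls had not used, only 67 of the 179 probes (37.4%) differed in the same direction, and their median difference was 0.12. Among the 2049 probes with an unadjusted P below 0.05 without chip 6, 850 (41.5%) kept their direction on chip 6, against 48.9% of all probes tested. For most of the 179 probes the comparison within a chip thus ran the other way. For the genes that follow, the difference on chip 6 is given with the fold change where it bears on it. That difference rests on 2 Dio2-/- Run pools and 1 wild-type Run pool. One of the former is replicate 24, which stood apart on the first component.

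**Figure D1:**
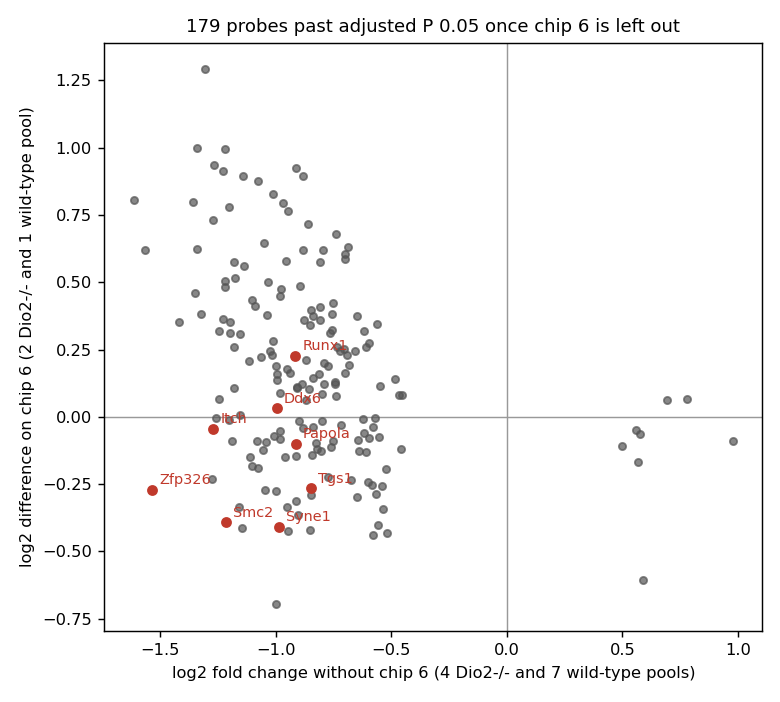
Each point is 1 of the 179 probes with an adjusted P below 0.05 once chip 6 was left out, with the log2 fold change without chip 6 on the x axis and the log2 difference on chip 6 alone on the y axis (Dio2-/- Run minus wild-type Run). Most points lie at the left, below 0 on the x axis, and they spread on both sides of 0 on the y axis, with 67 in the same direction on both. The 8 genes named in red include Zfp326 and Itch.

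The tissue label was checked against chondrocyte markers. Of 6 markers, Col2a1, Acan, Comp and Sox9 were detected on all 14 arrays, with values between 10.04 (Acan) and 15.75 (Comp), against a median of 7.87 over all tested probes. Hapln1, the link protein of aggrecan, was detected on 13 arrays and reached 7.79 at most, and Matn3 did not pass the filter. Markers of other tissues of the knee were bright too. All 19 measured fast muscle fibre genes and 16 of 17 neutrophil genes were detected on every array, with list means over the arrays between 13.21 and 14.73 for muscle and between 13 and 14.22 for neutrophils. Markers of muscle and marrow were thus measured in every pool beside those of cartilage, and in such bulk RNA fewer cells of a type and less RNA per cell cannot be told apart.

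Dio2 itself was barely measurable. Its probe (ILMN_2766037) was detected on 4 of 6 Dio2-/- Run and 2 of 8 wild-type Run arrays, and the other Dio2 probe gave no detected signal in any sample. The detected probe had a lowest, median and highest value of 4.95, 5.95 and 6.16 in Dio2-/- Run and of 4.95, 5.29 and 5.73 in wild-type Run. The groups overlapped, and the difference was 0.42 (SE 0.18, adjusted P = 0.578, exact two-sided permutation P = 0.0486 over 3003 arrangements). The sources used here do not give the position of the probe relative to the deletion, so it checks nothing about the genotype labels.

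Of 12 measured genes that handle thyroid hormone or respond to it, 8 had higher and 4 had lower values, with a median log2 fold change of 0.12. The retinoid receptor Rxrg, a partner of the thyroid hormone receptors, was the member with an unadjusted P below 0.05: its difference was 0.68 (SE 0.32, adjusted P = 0.605, with 0.78 on chip 6). Without Dio2-/- Run replicate 24, 0 of the 12 were at that threshold. Klf9, a transcription factor induced by the hormone, differed by 0.24 (SE 0.19, adjusted P = 0.742), by 1.17 on chip 6 and by -0.08 without chip 6. Thra, the receptor of chondrocytes, differed by -0.04 (SE 0.19, adjusted P = 0.967), and Dio3, which inactivates the hormone, by -0.04 (SE 0.19, adjusted P = 0.965). Ucp3, a mitochondrial carrier of muscle, differed by 0.58 (SE 0.34, adjusted P = 0.662), and like Rxrg it is a muscle gene as well.

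Calr encodes calreticulin, which holds calcium in the endoplasmic reticulum and helps glycoproteins to fold. Its values were 9.24, 9.93 and 10.62 (lowest, median, highest) in Dio2-/- Run and 9.99, 10.84 and 10.95 in wild-type Run. Apart from replicate 31 at 9.99, every wild-type Run pool lay at 10.60 or above, and apart from replicate 25 at 10.62, every Dio2-/- Run pool lay at 10.06 or below. The groups overlapped through these pools, with 3 of 6 Dio2-/- Run pools below every wild-type Run pool. The difference was -0.80 (SE 0.19, adjusted P = 0.342), and an exact two-sided permutation test gave P = 0.00433, where the smallest P that 3003 arrangements allow is 0.000666. That test exchanges pools across chips and takes no account of them. The study had singled out Calr from arrays that include these pools, so this P is no independent support for the difference. With the chip as a fixed block in limma, Calr differed by -0.90 with an unadjusted P of 0.0648, above 0.05, and an adjusted P of 0.622. Only chip 6 holds Run pools of both genotypes, so that estimate is the chip 6 difference itself. On chip 6 the Dio2-/- Run pools had 9.24 and 10.62 and the wild-type Run pool had 10.83, a difference of -0.90. Without chip 6 it was -0.79, so Calr had nearly the same value on both sets of arrays. The other Calr probe on the array gave no detected signal in any sample.

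Other chaperones of the endoplasmic reticulum ran the same way by smaller amounts. Of 15 measured genes without Calr, 13 had lower and 2 had higher values, with a median log2 fold change of -0.24, and 3 of the 15 were lower at an unadjusted P below 0.05 (3.11% of all genes were). Pdia3, a disulphide isomerase that works with calreticulin, had 12.22, 12.82 and 13.05 in Dio2-/- Run and 12.89, 13.13 and 13.32 in wild-type Run. Its difference was -0.35 (SE 0.15, adjusted P = 0.578, with -0.60 on chip 6). Pdia4, another isomerase, differed by -0.37 (SE 0.16, adjusted P = 0.583, with -0.60 on chip 6). Hsp90b1, the HSP90 of this compartment, differed by -0.42 (SE 0.20, adjusted P = 0.605) but by 0.23 on chip 6. Without Dio2-/- Run replicate 24, which had the lowest value of Calr and Pdia3, 0 of the 15 genes had an unadjusted P below 0.05 and the list median was -0.19. With the authors' own normalized values it was -0.06. The regulators of the unfolded protein response, which switch such chaperones on, were 7 higher and 7 lower among 14 genes. Among them Chac1, which degrades glutathione under stress, differed by 0.81 (SE 0.38, adjusted P = 0.605), and its difference was 2.09 on chip 6 and 0.41 without it.

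Many chaperone genes carry the endoplasmic reticulum stress element in their promoters. The letters CCAAT and CCACG with 9 free bases between them, searched on both strands, were found in 39 of 32851 promoter windows of RefSeq (GRCm38.p6, 250 bases before to 50 bases after the start), or 0.119%. They were found in 5 of the 13 chaperone genes with a window (Creld2, Dnajc3, Hsp90b1, Hspa5 and Pdia6) and in Calr. The windows of Calr and Hsp90b1 are shown 5′ to 3′ for the gene that had nearly the same difference with and without chip 6 and one that did not, with the element in capitals.
Calr promoter (chr8:84846882-84847181, minus strand): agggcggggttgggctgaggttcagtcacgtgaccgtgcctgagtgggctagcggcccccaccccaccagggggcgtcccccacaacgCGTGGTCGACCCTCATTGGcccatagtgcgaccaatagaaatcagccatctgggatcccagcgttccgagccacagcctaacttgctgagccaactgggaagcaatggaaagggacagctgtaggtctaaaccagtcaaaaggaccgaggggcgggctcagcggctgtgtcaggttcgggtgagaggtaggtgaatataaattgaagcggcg
Hsp90b1 promoter (chr10:86705395-86705694, minus strand): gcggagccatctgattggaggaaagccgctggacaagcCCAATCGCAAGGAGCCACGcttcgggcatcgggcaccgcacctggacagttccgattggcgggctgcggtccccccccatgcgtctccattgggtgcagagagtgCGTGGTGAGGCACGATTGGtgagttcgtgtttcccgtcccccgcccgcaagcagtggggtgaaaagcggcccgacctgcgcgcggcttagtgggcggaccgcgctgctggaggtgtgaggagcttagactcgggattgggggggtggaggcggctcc
The Calr window holds 1 match, which starts 162 bases before the start and lies on the opposite strand. The Hsp90b1 window holds 2 matches, 212 and 107 bases before the start. A match is a description of the sequence and was not tested for binding.

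The circadian clock runs on the activators CLOCK and ARNTL, which bind E-boxes in the genes of their own repressors and of output factors such as DBP. Chondrocytes keep such a clock, and it times matrix turnover. Dbp had 10.83, 12.57 and 13.01 (lowest, median, highest) in Dio2-/- Run and 9.61, 10.43 and 12.58 in wild-type Run. Replicate 31 at 12.58 was the only wild-type Run pool above 11.22, and replicates 35 (10.83) and 33 (11.62) were the only Dio2-/- Run pools below 12.46. The difference was 1.58 (SE 0.44, adjusted P = 0.402, with 2.64 on chip 6 and 1.24 without it). Nr1d1, which encodes the repressor REV-ERBα, had 7.70, 8.96 and 9.68 in Dio2-/- Run and 5.75, 7.49 and 8.36 in wild-type Run. Of the 6 Dio2-/- Run pools, 5 lay above every wild-type Run pool, and the difference was 1.49 (SE 0.38, adjusted P = 0.373, with 1.90 on chip 6 and 1.33 without it).

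The rest of the Dbp phase ran with them. All 11 measured genes of the list had higher values, with a median log2 fold change of 0.47, and 5 of 11 had an unadjusted P below 0.05 (4.97% of all genes were higher at that threshold). Ciart, a repressor of CLOCK and ARNTL, differed by 0.67 (SE 0.26, adjusted P = 0.56), the cryptochrome Cry2 by 0.47 (SE 0.18, adjusted P = 0.563) and the period gene Per3 by 0.42 (SE 0.17, adjusted P = 0.575). Per1, Per2, Nr1d2 and Hlf had differences between 0.10 and 0.25, and their adjusted P-values lay between 0.828 and 0.902. Without Dio2-/- Run replicate 24 all 11 were still higher, with a median of 0.35 and 2 genes at an unadjusted P below 0.05. Arntl, which peaks in the opposite phase, had 5.91, 6.60 and 7.57 in Dio2-/- Run and 6.01, 7.07 and 8.19 in wild-type Run, a difference of -0.27 (SE 0.33, adjusted P = 0.833) that was -0.67 on chip 6, -0.03 without chip 6 and -0.09 without wild-type Run replicate 22. Clock differed by -0.07 (SE 0.10, adjusted P = 0.879). No source used here gives the hour at which tissue was taken, and its part in these values was not tested.

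**Figure D2:**
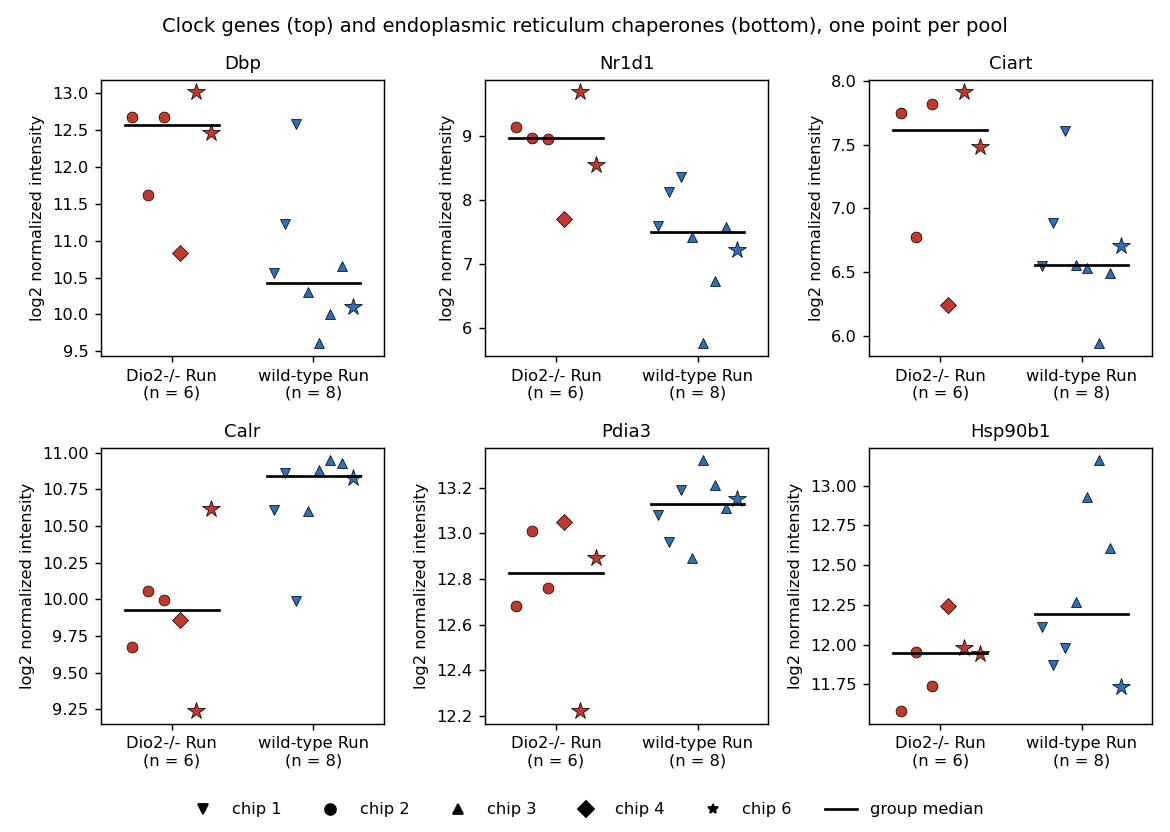
Log2 normalized intensity of 3 clock genes (top) and 3 endoplasmic reticulum chaperones (bottom) in each pool, with Dio2-/- Run at the left and wild-type Run at the right of each panel, 1 symbol for each chip and a line at the group median. Dbp and Nr1d1 are high in most Dio2-/- Run pools and Calr is low in 5 of 6, while Hsp90b1 overlaps widely. Stars are the pools of chip 6.

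E-boxes (CACGTG, both strands) were found in 2349 of the 32851 windows (7.15%) and in 3 of the 10 Dbp-phase genes with a window, Ciart, Per1 and Tef. The D-box TTATGTAA, the letters bound by DBP itself, was found in 308 windows (0.938%) and in 1 of the 10, Per3. The Ciart and Per3 windows are shown 5′ to 3′ as windows that hold several matches, with the E-boxes of Ciart and the D-boxes of Per3 in capitals.
Ciart promoter (chr3:95882179-95882478, minus strand): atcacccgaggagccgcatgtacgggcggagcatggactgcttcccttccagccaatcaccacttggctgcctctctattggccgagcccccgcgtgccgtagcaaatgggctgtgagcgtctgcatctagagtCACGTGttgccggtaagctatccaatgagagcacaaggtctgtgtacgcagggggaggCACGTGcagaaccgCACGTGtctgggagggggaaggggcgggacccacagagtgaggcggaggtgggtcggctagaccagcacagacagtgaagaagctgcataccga
Per3 promoter (chr4:151044616-151044915, minus strand): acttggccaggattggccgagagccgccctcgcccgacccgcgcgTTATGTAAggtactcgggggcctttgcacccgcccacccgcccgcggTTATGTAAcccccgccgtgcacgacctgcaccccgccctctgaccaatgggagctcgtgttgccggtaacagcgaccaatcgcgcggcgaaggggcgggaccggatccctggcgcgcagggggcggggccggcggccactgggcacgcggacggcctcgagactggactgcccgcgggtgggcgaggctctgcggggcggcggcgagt
The 3 E-boxes of Ciart begin 116, 58 and 44 bases before the start, and the 2 D-boxes of Per3 begin 205 and 158 bases before it. The windows of Dbp and Nr1d1 hold 0 matches to CACGTG.

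By P-value, lower genes led. Among the 12 named probes with the smallest P, 10 had lower and 2 had higher values in Dio2-/- Run, with adjusted P-values between 0.131 and 0.338. Groups that did not overlap were rare: 15 probes (0.0648%) were lower and 11 probes (0.0475%) were higher in every Dio2-/- Run pool than in every wild-type Run pool. By the brightest probe of each gene, 0.0569% of genes were lower and 0.0569% higher in this way.

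Pon1, a lipid-hydrolysing enzyme carried on high-density lipoprotein, was the clearest of them. It had 7.76, 8.15 and 8.54 in Dio2-/- Run and 8.70, 8.79 and 9.17 in wild-type Run, with no overlap. The difference was -0.70 (SE 0.12, adjusted P = 0.131), and on chip 6 the Dio2-/- Run pools had 8.01 and 7.76 against 9.17 in the wild-type Run pool, a difference of -1.28. Poc1b, a protein of centrioles and cilia, had 5.96, 6.21 and 6.53 in Dio2-/- Run and 6.55, 6.80 and 6.90 in wild-type Run, again with no overlap. Its difference was -0.53 (SE 0.11, adjusted P = 0.276, with -0.61 on chip 6). This was the dimmest of 4 Poc1b probes, and the brightest differed by -0.24 and the others by -0.33 and -0.16. For both probes the difference on chip 6 was thus at least as large as that between the groups. For Pon1, however, the wild-type Run pool of chip 6 was the highest of its group.

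Tgs1, which caps small nuclear RNAs, had 7.92, 8.01 and 8.50 in Dio2-/- Run and 8.52, 8.81 and 9.13 in wild-type Run. The groups did not overlap and differed by -0.67 (SE 0.13, adjusted P = 0.223), but the 4 pools of chips 2 and 4 lay between 7.92 and 8.04 and those of chip 6 at 8.40 and 8.50, and the difference on chip 6 was -0.27. A second Tgs1 probe detected on all 14 arrays differed by -0.17 (SE 0.16, adjusted P = 0.784), and the third, near background, by -0.43. Syne1, a nesprin that ties the nucleus to the cytoskeleton, had 9.84, 10.07 and 10.94 in Dio2-/- Run and 10.70, 11.02 and 11.38 in wild-type Run. The difference was -0.79 (SE 0.15, adjusted P = 0.249, with -0.41 on chip 6), and 5 other Syne1 probes differed by between -0.83 and 0.07. Papola, the poly(A) polymerase, differed by -0.67 (SE 0.14, adjusted P = 0.276) and by -0.10 on chip 6. Ccnl1, a cyclin of splicing, differed by -0.49 (SE 0.10, adjusted P = 0.276, with -0.29 on chip 6), and its other probes by -0.27 and -0.01. Usp1, a deubiquitinase of DNA repair, differed by -0.81 (SE 0.18, adjusted P = 0.338, with -0.81 on chip 6), and its 2 other probes by -0.76 and -0.44.

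Of the remaining named probes with the smallest P, several stood alone among the probes of their gene. The Slmap probe (-0.78, SE 0.14, adjusted P = 0.131) lay near background, detected on 3 of 6 Dio2-/- Run and 8 of 8 wild-type Run arrays, and the brightest Slmap probe differed by -0.25. The Sntb2 probe (-0.68, SE 0.15, adjusted P = 0.338) had no overlap, while 2 other probes of this syntrophin differed by 0.05 and -0.04. The Hps4 probe (-0.76, SE 0.17, adjusted P = 0.338) stood beside a probe at 0.00. Irx2, a homeobox factor, differed by 0.52 (SE 0.11, adjusted P = 0.338, with 0.50 on chip 6), with 5 of 6 Dio2-/- Run pools above every wild-type Run pool. Its probe was detected on 5 of 6 Dio2-/- Run and on 3 of 8 wild-type Run arrays, so most wild-type Run values lay at background.

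Dlk1, a Notch-family ligand that holds back chondrocyte and fat cell maturation, had 5.91, 6.70 and 7.20 in Dio2-/- Run and 5.34, 5.64 and 6.03 in wild-type Run. Of the 6 Dio2-/- Run pools, 4 lay above every wild-type Run pool. The difference was 0.89 (SE 0.19, adjusted P = 0.338, with 1.08 on chip 6), and a second Dlk1 probe differed by 0.58 (SE 0.26, adjusted P = 0.596). One more probe without a gene name in the annotation (ILMN_2798167) was detected on 7 of 8 wild-type Run arrays and was not well above background on any Dio2-/- Run array, so that it was at least 1.30-fold lower in Dio2-/- Run, with an adjusted P of 0.131.

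**Figure D3:**
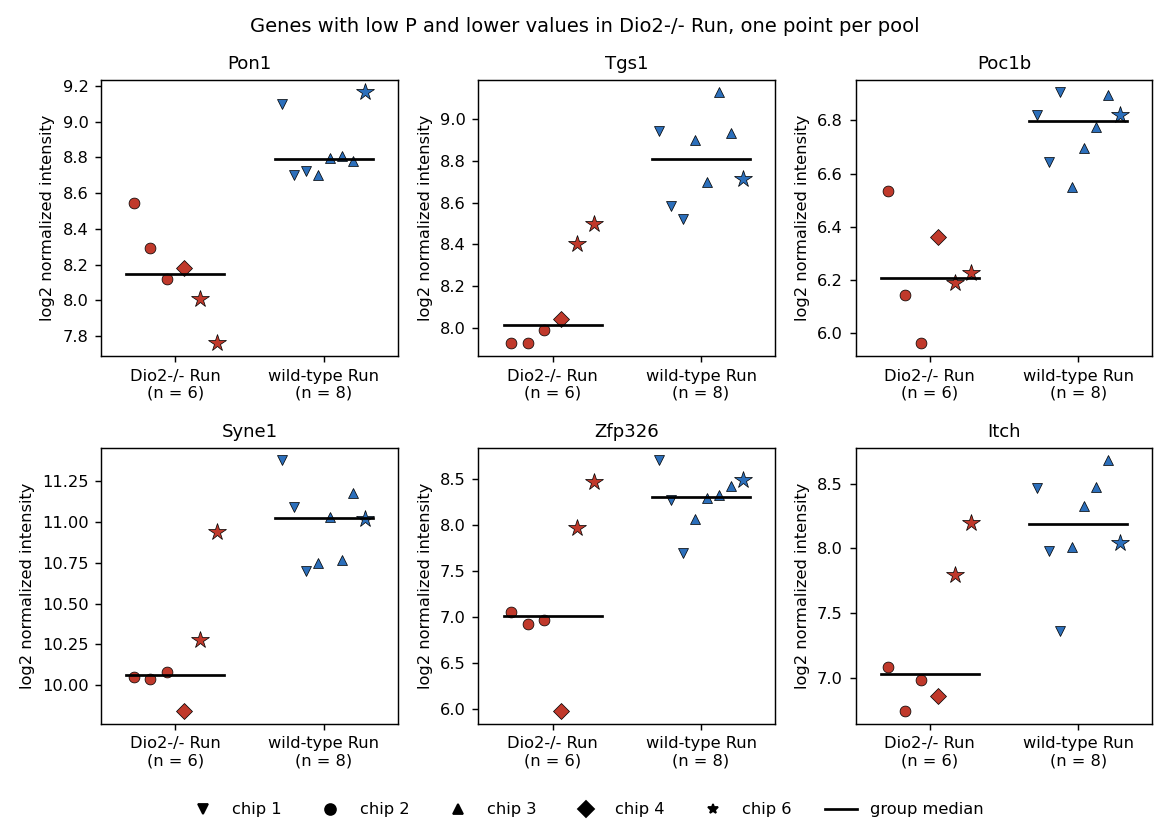
Log2 normalized intensity of 6 genes with lower values in Dio2-/- Run, 1 point for each pool, with Dio2-/- Run at the left and wild-type Run at the right, symbols for chips and a line at the median. In Pon1 and Poc1b the stars of chip 6 lie with their own genotype, while in Zfp326 and Itch the Dio2-/- Run pools of chip 6 (7.97 and 8.47, 7.79 and 8.20) lie among the wild-type Run pools.

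Of the 6 lowest fold changes among probes with an unadjusted P below 0.01 that every array of a Run group detected, 4 were smaller or turned on chip 6. Zfp326, a zinc finger protein of the splicing machinery, had 5.97, 7.01 and 8.47 in Dio2-/- Run and 7.69, 8.31 and 8.71 in wild-type Run. Its difference was -1.06 (SE 0.27, adjusted P = 0.373), -1.53 without chip 6 and -0.27 on chip 6, and its other probes differed by -0.79 and -0.09. Itch, a ubiquitin ligase, differed by -0.89 (SE 0.22, adjusted P = 0.342), and by -0.04 on chip 6, and a second probe by -0.72. Smc2, a condensin subunit, differed by -0.90 (SE 0.21, adjusted P = 0.342, with -0.39 on chip 6). Itga2, a collagen-binding integrin, differed by -0.88 (SE 0.30, adjusted P = 0.492) and by 0.33 on chip 6. By contrast Lhx1, a LIM homeobox factor, had no overlap and differed by -1.01 (SE 0.34, adjusted P = 0.492, with -1.21 on chip 6; -0.77 on a second probe), and 2210407C18Rik differed by -1.14 (SE 0.37, adjusted P = 0.486, with -1.18 on chip 6). As a description of the lower genes, the 383 with an unadjusted P below 0.05 had a median gene length of 33.9 kb, against 16.1 kb for the 612 higher genes and 21.3 kb for all genes tested.

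Among probes with an unadjusted P below 0.01 that every array of a Run group detected, the highest fold changes after Dbp and Nr1d1 were those of Fbp2, Chrna10, Aph1a and Dlk1. Fbp2, the fructose bisphosphatase of muscle, had 8.49, 9.34 and 10.79 in Dio2-/- Run and 7.68, 8.04 and 9.52 in wild-type Run. The groups overlapped, with 2 of 6 Dio2-/- Run pools above every wild-type Run pool. The difference was 1.11 (SE 0.37, adjusted P = 0.486, with 2.40 on chip 6 and 0.70 without it). Chip 6 held the lowest wild-type Run pool (7.68) and the highest Dio2-/- Run pool (10.79). Chrna10, an acetylcholine receptor subunit, differed by 1.00 (SE 0.34, adjusted P = 0.492, with 1.87 on chip 6 and 0.71 without it). Aph1a, a subunit of gamma-secretase, which cuts Notch, differed by 0.89 (SE 0.31, adjusted P = 0.504, with 0.67 on chip 6) on 1 of its 3 probes. The brightest Aph1a probe differed by -0.11 and the third, near background, by -0.24, so the probes of this gene disagreed in sign.

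Skeletal muscle genes had higher values as lists. Of 19 fast fibre genes, 18 were higher and 10 of them at an unadjusted P below 0.05, with a median log2 fold change of 0.53, against 4.97% and 0.01 over all genes. Of 10 slow fibre genes, all were higher, 3 at that threshold, with a median of 0.46. Pygm, the glycogen phosphorylase of muscle, had 10.75, 11.69 and 12.76 in Dio2-/- Run and 10.12, 10.50 and 11.85 in wild-type Run, a difference of 0.90 (SE 0.33, adjusted P = 0.535, with 1.56 on chip 6). Casq1, the calcium store protein of fast fibres, differed by 0.94 (SE 0.40, adjusted P = 0.575), the deaminase Ampd1 by 0.80 (SE 0.32, adjusted P = 0.57) and troponin Tnnt3 by 0.53 (SE 0.22, adjusted P = 0.57). Of the slow fibre genes, Fhl1, a LIM protein of the sarcomere, had 13.21, 13.93 and 14.15 in Dio2-/- Run and 12.84, 13.26 and 13.57 in wild-type Run, with 5 of 6 Dio2-/- Run pools above every wild-type Run pool. It differed by 0.59 (SE 0.17, adjusted P = 0.406), and Myoz2, which anchors calcineurin at the Z-disc, differed by 0.85 (SE 0.28, adjusted P = 0.486, with 1.10 on chip 6).

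The level of muscle RNA varied between pools of one genotype. The mean of the fast fibre list was 13.52, 14.09 and 14.73 (lowest, median, highest) in Dio2-/- Run and 13.21, 13.44 and 14.36 in wild-type Run, with replicate 24 at the top of the Dio2-/- Run pools. Without that pool, 18 of 19 genes were still higher, but 1 rather than 10 had an unadjusted P below 0.05 and the median was 0.39. Of the 10 slow fibre genes, 9 were higher without it, 3 of them at that threshold as before, with a median of 0.33. Of the genes of energy use that muscle is rich in, many were higher. Of 22 genes of glycogen breakdown and glycolysis, 14 were higher, 7 of them at an unadjusted P below 0.05 (median 0.21), where 4.97% of all genes were and 51.9% had a fold change above 0, and without replicate 24 only 1 was (median 0.07). The 7 were led by Pygm and the muscle forms Eno3 (0.66, SE 0.26, adjusted P = 0.57) and Phkg1 (0.72, SE 0.33, adjusted P = 0.594). Of 28 respiratory chain genes, 21 were higher, with a median of 0.14, and Sdhc, a subunit of complex II, differed by 0.33 (SE 0.13, adjusted P = 0.57). The small heat shock genes Cryab (0.69, SE 0.28, adjusted P = 0.57) and Hspb8 (0.55, SE 0.24, adjusted P = 0.583), both abundant in muscle, were higher, while the list of 14 cytosolic heat shock genes had a median of -0.12. The part of muscle in these values was not tested.

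**Figure D4:**
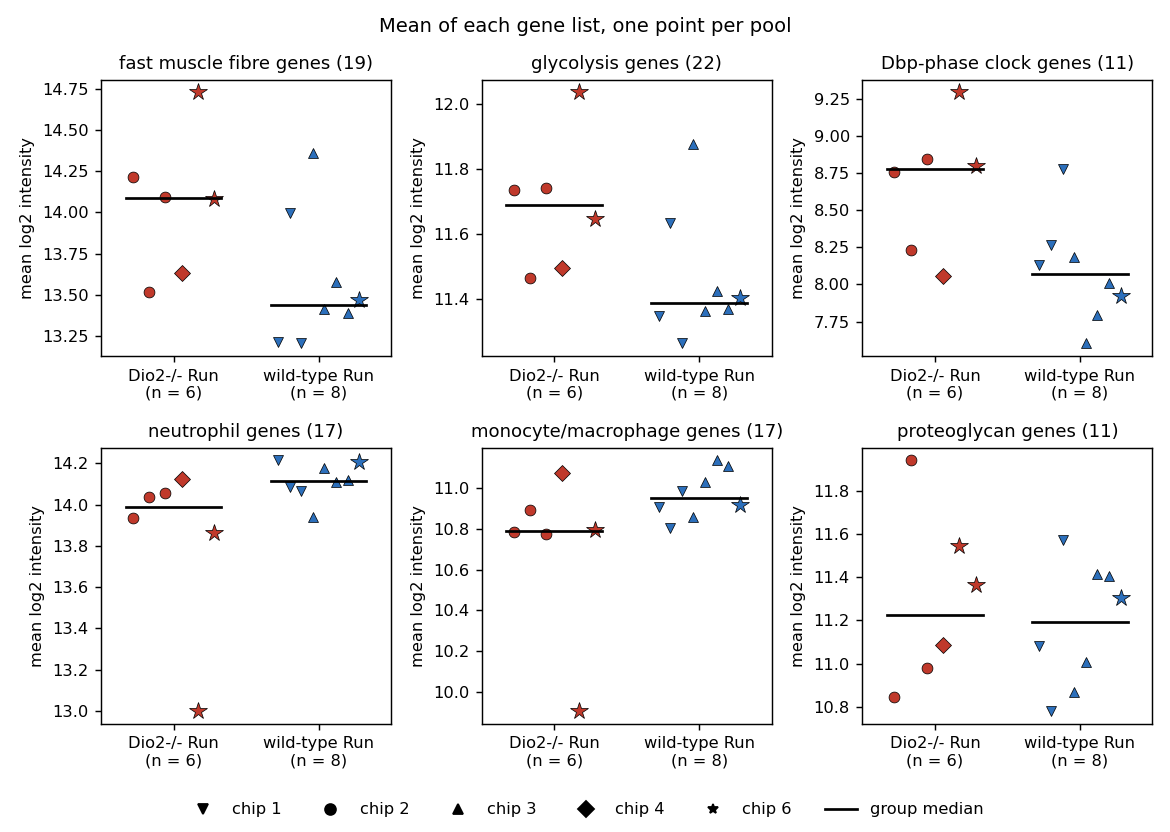
Mean log2 intensity of 6 gene lists in each pool, with Dio2-/- Run at the left and wild-type Run at the right of each panel, 1 symbol for each chip and a line at the group median. Replicate 24 of Dio2-/- Run, the higher star in the muscle panel (14.73), is the lowest pool for neutrophil genes (13) and for monocyte genes (9.90), and the groups overlap widely in the proteoglycan panel.

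Most neutrophil, monocyte, MHC class II, T cell and B cell genes had lower values in Dio2-/- Run, and except for B cell genes the list medians lay within 0.07 of 0 without 1 pool, replicate 24. Of 17 neutrophil granule genes, 16 were lower and 0 had an unadjusted P below 0.05, with a median log2 fold change of -0.26. The mean of the list was 13 in replicate 24 and between 13.86 and 14.13 in the other 5 Dio2-/- Run pools, and between 13.94 and 14.22 in wild-type Run. Without replicate 24 the median was -0.05. Of 17 monocyte and macrophage genes, all were lower (median -0.28), and without replicate 24 12 were lower (median -0.06). For MHC class II, all 10 were lower with it (median -0.12) and 8 were higher without it (median 0.07). T and NK cell genes had a median of -0.21 with it and of 0.02 without it, and B cell genes of -0.23 and -0.13.

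A pair of monocyte genes differed in the other pools as well. F13a1, the clotting factor XIII A chain made by macrophages, had 12.42, 13.13 and 13.60 in Dio2-/- Run and 13.14, 13.63 and 13.91 in wild-type Run. Its difference was -0.50 (SE 0.16, adjusted P = 0.486), -0.54 without replicate 24 and -0.62 on chip 6. Cx3cr1, the fractalkine receptor, differed by -0.42 (SE 0.14, adjusted P = 0.486), and by -0.32 without replicate 24. Adipoq, the fat cell hormone adiponectin, differed by -0.37 (SE 0.15, adjusted P = 0.569, with -0.42 on chip 6), while the 11 adipocyte genes had a median of -0.01.

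Bone cell genes leaned lower without a large shift. Of 11 osteoblast and osteocyte genes, 10 were lower with 0 at an unadjusted P below 0.05 (median -0.12). Mepe, a phosphoprotein of osteocytes, had 7.67 in replicate 24 and 10.87 or more in all other Dio2-/- Run pools, and 11.37 to 12.44 in wild-type Run. Its difference was -0.92 (SE 0.59, adjusted P = 0.691) and -0.27 without replicate 24. Sost, which encodes the Wnt antagonist sclerostin of osteocytes, differed by -0.47 (SE 0.26, adjusted P = 0.643, with -0.01 on chip 6). Of 12 osteoclast genes, 10 were lower, 2 of them at an unadjusted P below 0.05 (3.11% of all genes were): the integrin Itgb3 (-0.44, SE 0.15, adjusted P = 0.507) and the fusion protein Dcstamp (-0.31, SE 0.15, adjusted P = 0.605). Both lay near background, and Itgb3 was detected on 1 of 6 Dio2-/- Run and 6 of 8 wild-type Run arrays.

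The genes that make cartilage matrix overlapped almost fully between the genotypes. Of 6 cartilage collagens, 3 were higher and 3 lower, with a median of 0.04. Col2a1, the main collagen of the tissue, had 13.32, 14.23 and 15.20 in Dio2-/- Run and 12.82, 13.93 and 14.61 in wild-type Run. It differed by 0.35 (SE 0.30, adjusted P = 0.767, with 0.38 on chip 6 and 0.14 without it). Without Dio2-/- Run replicate 24 the difference of Col2a1 was 0.15. Acan, the core protein of aggrecan, had 10.08, 10.47 and 11.18 in Dio2-/- Run and 10.04, 10.62 and 10.69 in wild-type Run, a difference of 0.13 (SE 0.18, adjusted P = 0.864). The interval of that difference, from -0.25 to 0.51 (95%), leaves room for changes in either direction.

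In each of the other matrix lists 1 gene had an unadjusted P below 0.05, where 8.08% of all genes did in either direction. Of 11 proteoglycan genes, 7 were higher (median 0.07), and Chad, chondroadherin, which binds collagen and integrins, differed by 0.41 (SE 0.19, adjusted P = 0.598, with 0.47 on chip 6). Without Dio2-/- Run replicate 24, 0 of the 11 were at that threshold. Of 12 other matrix glycoprotein genes, 9 were higher (median 0.14), among them Comp at 0.35 (SE 0.22, adjusted P = 0.691). Thbs1, thrombospondin 1, ran the other way. It had 7.46, 8.12 and 9.03 in Dio2-/- Run and 8.37, 9.03 and 9.24 in wild-type Run, and 5 of 6 Dio2-/- Run pools lay below every wild-type Run pool. The difference was -0.79 (SE 0.23, adjusted P = 0.402, with -0.98 on chip 6 and -0.81 without it). Of the 15 fibrous and basement membrane collagens, 6 were higher and 9 lower (median -0.04), and Col8a1 differed by -0.37 (SE 0.17, adjusted P = 0.59, with -0.12 on chip 6). Without Dio2-/- Run replicate 24, 1 of these collagens was higher and 14 were lower (median -0.14).

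Transcription factors, hypertrophy and proteases were described in the same way. Sox9, the master factor of chondrocytes, had 11.34, 11.81 and 12.45 in Dio2-/- Run and 11.19, 11.59 and 12.30 in wild-type Run, a difference of 0.18 (SE 0.20, adjusted P = 0.819), which was 0.72 on chip 6 and -0.07 without it. Runx1, which supports early chondrocytes, differed by -0.62 (SE 0.20, adjusted P = 0.486) and by 0.23 on chip 6, and a dimmer probe by -0.03. Sox4 differed by -0.24 (SE 0.16, adjusted P = 0.711) and by 0.03 on chip 6. The 9 genes of hypertrophic chondrocytes had a median of -0.07, with Col10a1 at -0.07 (SE 0.39, adjusted P = 0.973) and Mmp13, the collagenase of these cells, at -0.19 (SE 0.19, adjusted P = 0.8) on its brightest probe. A second Mmp13 probe detected on all 14 arrays differed by -0.71 (SE 0.30, adjusted P = 0.575), and the third, near background, by 0.17. Of 18 proteases and inhibitors, 14 were lower (median -0.12). Adamts15, an aggrecanase, differed by -0.36 (SE 0.16, adjusted P = 0.583, with -0.37 on chip 6) and was detected on 3 of 6 Dio2-/- Run and 7 of 8 wild-type Run arrays.

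Wnt signals hold a balance between articular and hypertrophic chondrocytes. Of 19 genes of the pathway, 14 were higher and 5 lower (median 0.09). At an unadjusted P below 0.05, 4 were higher and 1 lower, against 4.97% and 3.11% of all genes. Without Dio2-/- Run replicate 24, 2 were higher and 0 lower at that threshold, and the median was 0.05. Fzd9, a frizzled receptor, had 6.80, 7.44 and 7.94 in Dio2-/- Run and 6.22, 6.78 and 7.45 in wild-type Run. The difference was 0.63 (SE 0.20, adjusted P = 0.486, with 0.37 on chip 6). Frzb, a secreted antagonist made by articular chondrocytes, differed by 0.52 (SE 0.23, adjusted P = 0.578, with 1.10 on chip 6), and Fzd7 by 0.42 (SE 0.19, adjusted P = 0.578, with 0.99 on chip 6). For Frzb the wild-type Run pool of chip 6 (5.165) was the lowest of its group. The Dio2-/- Run pools of chip 6 (6.134 and 6.39) lay among the other wild-type Run pools (5.627 to 6.783). Axin2, a feedback target of the pathway, had 7.58, 8.37 and 8.50 in Dio2-/- Run and 7.75, 7.88 and 8.14 in wild-type Run. Its 5 Dio2-/- Run pools other than replicate 35 (7.58) lay above every wild-type Run pool, and the difference was 0.34 (SE 0.15, adjusted P = 0.582, with 0.26 on chip 6). Dkk1, an antagonist, differed by -0.60 (SE 0.27, adjusted P = 0.588, with -1.21 on chip 6).

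Of the other growth factor lists, the 24 genes of TGF-beta and BMP signalling had a median of -0.02. Gdf5, the joint-forming ligand of the family and an osteoarthritis risk gene in humans, had 5.27, 5.77 and 7.06 in Dio2-/- Run and 5.21, 5.37 and 5.62 in wild-type Run. It differed by 0.52 (SE 0.20, adjusted P = 0.555, with 0.76 on chip 6) and was detected on 3 of 6 Dio2-/- Run and 1 of 8 wild-type Run arrays. The 13 IGF genes had a median of 0.05, and the binding protein Igfbp2 differed by 0.37 (SE 0.14, adjusted P = 0.536, with 0.22 on chip 6) and by -0.09 on a dimmer probe. Socs2, which curbs growth hormone signalling, differed by -0.19 (SE 0.12, adjusted P = 0.696) and by 0.42 on chip 6.

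Cell division and stress lists lay near 0. The 17 replication genes had a median of -0.01 and the 15 mitotic genes of -0.09, with the kinesin Kif11 at -0.29 (SE 0.10, adjusted P = 0.492, with -0.49 on chip 6). Hmgb2, a chromatin protein of superficial chondrocytes, differed by -0.21 (SE 0.15, adjusted P = 0.704), by -0.77 on chip 6 and by -0.06 without it. Pdcd10, a vascular adaptor protein, had 10.27, 10.34 and 10.49 in Dio2-/- Run and 10.42, 10.66 and 10.81 in wild-type Run, a difference of -0.28 (SE 0.08, adjusted P = 0.402, with -0.03 on chip 6). Klf6, an immediate early gene, differed by -0.36 (SE 0.12, adjusted P = 0.486, with -0.19 on chip 6), and Fos by 0.63 (SE 0.47, adjusted P = 0.731) with values that overlapped widely. All 12 interferon-stimulated genes were lower, with 0 at an unadjusted P below 0.05 and a median of -0.11. Erythroid genes had a median of 0.02. Without Dio2-/- Run replicate 24, the medians were -0.02 for mitotic genes, -0.07 for interferon-stimulated genes, -0.06 for IGF genes and 0.03 for matrix glycoproteins.

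**Figure D5:**
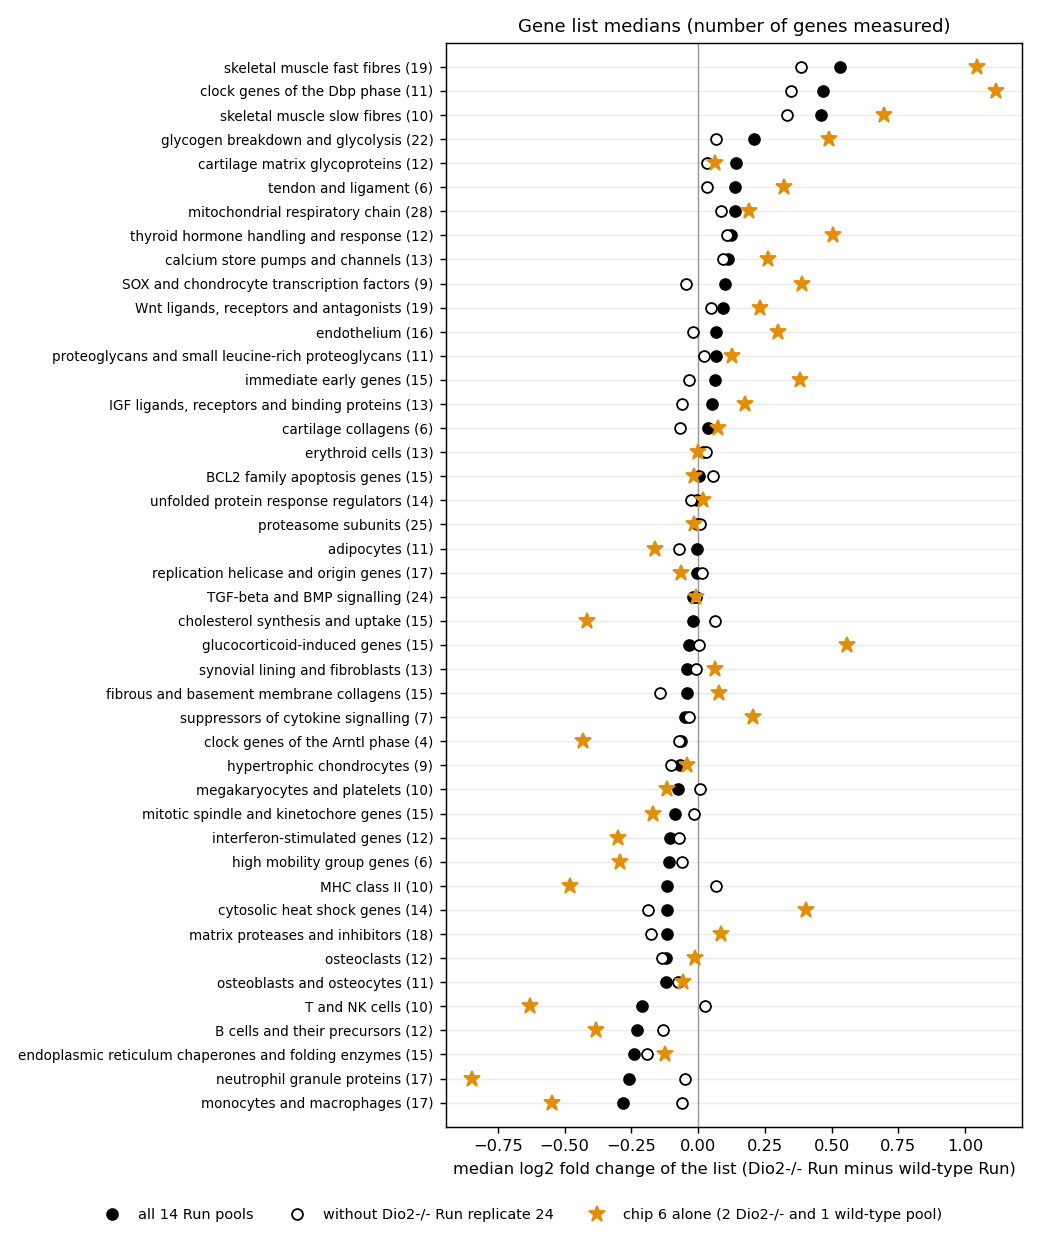
Median log2 fold change (Dio2-/- Run minus wild-type Run, x axis) of each of the 44 gene lists (rows, number of genes measured in brackets), over all 14 pools (black), without Dio2-/- Run replicate 24 (white) and on chip 6 alone (stars). Muscle and Dbp-phase clock lists lie highest at 0.46 to 0.53, monocyte and neutrophil lists lowest at -0.28 and -0.26, and the white blood cell lists move towards 0 without replicate 24.

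Whether the genotype difference depended on running was asked with the interaction, the difference in Run minus that between 3 Dio2-/- NoRun and 3 wild-type NoRun pools, which had not run. No probe passed: 0 of 23148 had an adjusted P below 0.05 in limma (smallest 0.315), and 1187 probes (5.13%) had an unadjusted P below 0.05. Pon1 differed by -0.70 in Run and by 0.14 in NoRun (interaction adjusted P = 0.891), Papola by -0.67 and 0.13, Itch by -0.89 and 0.38, and Adipoq by -0.37 and 0.40. Dbp differed by 1.58 in Run and 1.53 in NoRun (interaction adjusted P = 0.997), Nr1d1 by 1.49 and 1.05 (interaction adjusted P = 0.963), and Calr differed by -0.80 in Run and -1.43 in NoRun (interaction adjusted P = 0.956). The NoRun genotypes also lay on separate chips, 5 for Dio2-/- NoRun and 4 for wild-type NoRun, so that genotype and chip cannot be told apart there.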

How the data were processed

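RNA of 20 cartilage pools was measured on Illumina MouseWG-6 v2 arrays. The authors deposited probe intensities without normalization, each with a detection P-value, and a table of normalized log2 values. How the authors normalized that table was not stated in the sources.

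Intensities were background-corrected and quantile-normalized to log2 values with neqc (limma 3.58.1, R 4.3.3, offset 16). Of 45281 probes, the 23148 detected (P-value below 0.05) in 3 or more samples entered the test. The 4 groups of genotype and running shared 1 linear model and 1 estimate of spread. Benjamini-Hochberg adjustment covered every tested probe, at 0.05. P-values measure the spread between pools of 2 mice, and the number of arrays limits the precision. No pair of arrays held identical values. The fit was tested on simulated data with independent noise. These held no chip effect and no outlying pool, so that test does not bear on either.

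Each of 44 gene lists took the brightest tested probe of a gene and was described by counts and a median. Named genes were those the study discusses, the 12 named probes of smallest P, the 6 highest and 6 lowest fold changes among probes with P below 0.01 and detection on all arrays of a Run group, and up to 4 genes of smallest P per list. The unnamed probe and the genes outside this rule, such as Thra and Dio3, were chosen after their values were seen. The members and lists were chosen with earlier results of these data known. In the platform annotation 34885 probes carry 1 symbol, 18 several and 10378 none. Alternatives were the background correction, the normalization, the authors' values, the filter on dim probes, array weights, the chip as a block, and each sample left out.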

Additional observations from a re-analysis of the deposited data

Results flagged for a closer look

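Among groups of 6 or 8 pools, 19 of 282 tested held a pool far from the rest by Dixon's criterion, and chance gives about 1 in 20. Of the 19, 11 were Dio2-/- Run replicate 24. That pool was low for Mepe (7.67, next 10.87), Cxcr2 (8.87, next 10.38), Chil3 (12.36, next 13.61), Cd74 (12.93, next 14.42) and Fcer2a (7.10, next 8.42). Its list means were low for neutrophil genes (13, next 13.86), monocyte genes (9.90, next 10.78), MHC class II (10.08, next 10.99), B cells (8.48, next 8.90) and T and NK cells (7.72, next 8.47), and high for suppressors of cytokine signalling (8.93, next 8.71). Dio2-/- Run replicate 25 was high for Itga2 (7.49, next 6.32) and Isg15 (12.12, next 11.77), and Dio2-/- Run replicate 35 was low for Axin2 (7.58, next 8.30). Wild-type Run replicate 31 was low for Calr (9.99, next 10.6) and high for Fmod (11.26, next 10.56) and Cry2 (8.07, next 7.39). The osteoclast list was high in wild-type Run replicate 21 (9.84, next 9.61) and the heat shock list in wild-type Run replicate 20 (10.21, next 9.86).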

How the results depend on the processing

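The count of 0 probes with an adjusted P below 0.05 became 19 with array weights, 1 with the chip as a fixed block and 179 without chip 6, and lay between 0 and 19 when each pool was left out (19 without Dio2-/- Run replicate 25). The count at an unadjusted P below 0.05 was 1891, against 3350 with no filter on dim probes and 3364 with array weights, and lay between 1301 and 2760 when each pool was left out. Of these probes 53.0% were higher in Dio2-/- Run, against 38.6% without Dio2-/- Run replicate 24 and 36.2% without chip 6. Calr lay between -0.94 (without Dio2-/- Run replicate 25, adjusted P = 0.0489) and -0.66 (without replicate 24). The estimate with the chip as a fixed block is the difference on chip 6, the only chip with Run pools of both genotypes. With that block, the sign turned for Socs2 (0.42), Sox4 (0.028), Itga2 (0.33), Runx1 (0.23), Tnfrsf11a (0.56), Hsp90b1 (0.23) and Lss (0.0095). Without chip 6 it turned for Sox9 (-0.065), Klf9 (-0.079) and Cd74 (0.12). Cd74 was also 0.027 with array weights and between -0.26 and 0.093 when each pool was left out. Of the values that the list medians took under the alternatives, 1124 moved by less than the spread between pools and 20 by more. The causes were not tested. No paired analysis was possible because the groups share no replicate numbers.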
